A study of Mus musculus with 15 samples.

Results

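The genes described here encode hormones and secretory markers of the enteroendocrine cells of the gut: Nts, Sct, Gcg, Pyy, Cck, Insl5, Sst, Tac1, Chga and Tph1. They were chosen by gene symbol, and all 10 were found among the 23589 loci with a gene name, each on a locus of its own. The RNA-Seq libraries came from male C57BL/6 mice under 3 diets, from colon (intestinal mucosa), hypothalamus, hippocampus, liver and epididymal fat. The AL group was fed ad libitum and was 5 months of age when tissues were taken. The DR group received 40% dietary restriction for 1 month from 4 months of age and was also 5 months of age. The DR-AL group went through the same month of restriction, was then fed AL for 2 months and was 7 months of age, so that refeeding and the older age cannot be told apart. RNA from 5 mice of a group was pooled into 1 library for each tissue and diet, 15 libraries in all. No difference between these libraries has a replicate check within the RNA-Seq data. The paper's real-time PCR on individual mice gave lower Pomc and higher Crh and Hcrt than AL in the DR and DR-AL hypothalamus. In other mice, restricted and refed for longer, the paper reports Nts higher in the DR colon and not significantly different in the hypothalamus. The colon libraries described here went the other way for Nts.

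Enteroendocrine cells are scattered single cells of the intestinal epithelium that sense the gut contents and release peptide hormones or serotonin. Neurotensin (Nts) comes mainly from cells of the distal small intestine and proximal colon, secretin (Sct) is known for its release in the upper small intestine, and L cells of the distal gut make the products of proglucagon (Gcg), peptide YY (Pyy) and insulin-like peptide 5 (Insl5). Several of the same genes, among them Nts, Cck, Sst and Tac1, also encode neuropeptides of the brain, where neurotensin, cholecystokinin, somatostatin and substance P act between neurons.

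Promoter windows of the 10 genes were read from RefSeq on GRCm38.p6, from 250 bases before the start site to 50 after it, 13 windows in all because Pyy, Insl5 and Tph1 had more than 1 start site. The stretches before the start of Nts, Sct and Gcg are shown because Nts and Sct were lower than AL in both the DR and the DR-AL colon, and Gcg was higher in the DR-AL colon. Bases that lie inside the GENCODE M21 gene were left out. Capitals mark CG dinucleotides, the AP-1 letters TGANTCA and the TATA letters TATAAA on either strand. The Nts stretch is chr10:102490487-102490668, the Sct stretch chr7:141279134-141279383 and the Gcg stretch chr2:62483654-62483903, all on the minus strand and written 5′ to 3′.
Nts: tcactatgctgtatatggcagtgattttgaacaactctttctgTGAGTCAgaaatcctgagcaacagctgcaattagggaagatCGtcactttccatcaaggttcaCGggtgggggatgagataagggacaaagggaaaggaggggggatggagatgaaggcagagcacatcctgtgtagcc
Sct: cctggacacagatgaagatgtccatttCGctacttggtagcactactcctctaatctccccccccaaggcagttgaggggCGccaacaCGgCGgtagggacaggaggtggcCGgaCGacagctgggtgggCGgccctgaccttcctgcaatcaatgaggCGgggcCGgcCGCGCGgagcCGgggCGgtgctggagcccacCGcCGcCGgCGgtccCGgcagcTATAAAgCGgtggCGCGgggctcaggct
Gcg: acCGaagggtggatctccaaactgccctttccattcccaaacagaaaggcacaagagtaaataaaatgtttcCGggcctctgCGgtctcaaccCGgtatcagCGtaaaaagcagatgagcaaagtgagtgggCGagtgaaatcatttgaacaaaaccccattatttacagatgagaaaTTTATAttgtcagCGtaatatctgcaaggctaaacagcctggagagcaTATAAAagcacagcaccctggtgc
The windows of Nts and Sct differ in CG content. The whole Nts window holds 3 CG dinucleotides and 23.3% of all 32851 promoter windows hold fewer, whereas the Sct window holds 24 and 80.0% hold fewer. The Gcg window holds 7, the median of all windows. TGANTCA is in 1 of the 13 windows, that of Nts at -207 from the RefSeq start, and in 7.81% of all windows. TATAAA is in 5 of the 13, among them Sct at -28 and Gcg, and in 13.6% of all windows. The cyclic AMP response letters TGACGTCA, which do not overlap the other 2 motifs, are in 1 of the 13, that of Sst, and in 1.79% of all windows. These matches describe letters in a window and say nothing about binding.

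Counts on named loci ranged from 25043727 to 33422262 in the colon libraries, from 29673910 to 32745522 in the hypothalamus and from 25159857 to 40500130 in the hippocampus. Levels are given as raw counts and as CPM, the counts scaled to a fixed total of named counts, with 95% exact Poisson intervals where shown. Libraries of a tissue were compared by the Z test of the study's methods on square roots of scaled counts. A gene was called at a Benjamini-Hochberg adjusted p under 0.05 over all genes with at least 1 count and a higher level at least 25% above the lower one, the fold threshold below. It compares single libraries rather than diets, and like the intervals it covers counting error only. The summed level of 16 colon epithelium genes was 55670 CPM (AL), 58430 (DR) and 57570 (DR-AL) in the colon. Outside the colon it was highest in DR-AL epididymal fat, at 373 CPM. The summed level of 13 hypothalamic neuron genes was 1292 CPM (AL), 1087 (DR) and 996 (DR-AL) in the hypothalamus. It was 57.4 CPM in the DR-AL hippocampus and 248 in DR-AL epididymal fat. Counts above 0 alone do not set these tissues apart, because all 13 genes also had counts in the AL hippocampus. Slc17a7, the vesicular glutamate transporter of the forebrain, had between 30201 and 52182 counts in the hippocampus.

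In the colon Pyy was the most abundant of the 10 transcripts per length. Its FPKM, the deposited level per transcript length, was 253 (AL), 303 (DR) and 274 (DR-AL), which made up 45.5%, 57.5% and 46.9% of the summed FPKM of the 10 genes. Chga, Insl5, Sct and Gcg followed in AL with shares of 14.9%, 12.9%, 9.48% and 8.26%. Nts stood sixth in AL with 3.63%, ninth in DR with 0.715% and eighth in DR-AL with 1.21%. Cck, Tac1 and Sst were the least abundant peptide transcripts of the AL colon, with FPKM of 1.84, 5.00 and 10.7.

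**Figure D1:**
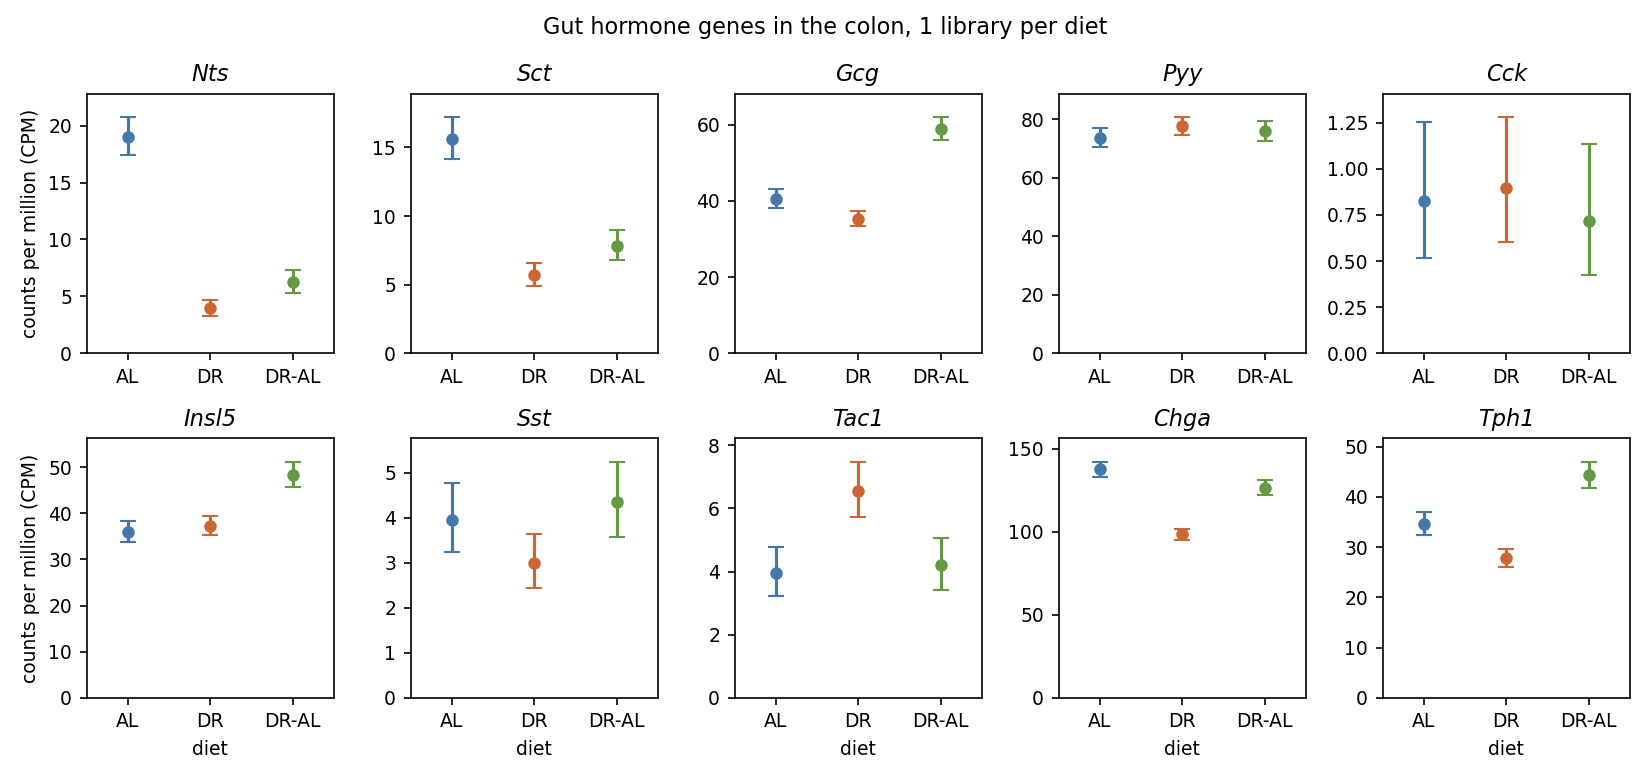
CPM (scaled counts) of each of the 10 genes in the AL, DR and DR-AL colon libraries, with points for the single library of each diet and bars for the 95% exact Poisson interval. Nts was 19.0 CPM (AL), 3.95 (DR) and 6.23 (DR-AL), and Sct 15.6, 5.69 and 7.83, whereas Pyy lay between 73.6 and 77.6.

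Nts and Sct were lower in the DR colon, and both were still below AL after refeeding. Nts, on chr10:102481756-102490486 of the minus strand (GENCODE M21, GRCm38), had 505 counts (AL), 132 (DR) and 156 (DR-AL). Those are 19.0 CPM (17.4 to 20.8), 3.95 (3.30 to 4.68) and 6.23 (5.29 to 7.29), and the AL library lies above both others with no overlap of intervals. The log2 fold change was -2.26 (95% interval -2.56 to -1.99) in DR against AL, 4.80-fold lower, and -1.61 (-1.88 to -1.35) in DR-AL against AL, 3.05-fold lower. Sct, on chr7:141278330-141279133 of the minus strand, had 415 counts (AL), 190 (DR) and 196 (DR-AL). Its level was 15.6 CPM (AL), 5.69 (DR) and 7.83 (DR-AL), so that it followed the same order as Nts with a smaller drop. The log2 fold change of Sct was -1.46 (-1.71 to -1.21) in DR against AL and -1.0 (-1.25 to -0.75) in DR-AL against AL. Both genes were higher in DR-AL than in DR, Nts by 0.66 (0.31 to 1.00) and Sct by 0.46 (0.17 to 0.76) on the log2 scale. The comparisons with AL share the AL library. In pooled tissue, fewer cells of a type and less RNA per cell cannot be told apart.

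Of the 10 genes, 4 were called between the DR and AL colon, Tac1 higher and Nts, Sct and Chga lower, while 19.7% of the 18242 genes tested were called, 9.04% higher and 10.6% lower. Between DR-AL and AL 5 were called, with Gcg, Insl5 and Tph1 higher and Nts and Sct lower, against 14.3% of all genes, 5.83% higher and 8.50% lower. Between DR-AL and DR 8 were called, 7 higher and Tac1 lower, against 14.5% of all genes, 6.78% higher and 7.67% lower. Counts of called genes in the other colon lists below are to be read against the same shares. The median log2 fold change of the 10 genes was -0.26, 0.06 and 0.42 in these comparisons, and that of all genes tested 0.00, -0.01 and -0.02. With a coefficient of variation of 0.1 allowed between pools, Nts and Sct stayed called in both comparisons with AL and Gcg in DR-AL against DR, and the other calls were lost. With the 0.164 fitted over the colon libraries, which takes in any effect of diet, Sct in DR-AL against AL and Gcg in DR-AL against DR also lost their calls.

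The L cell hormones did not share the drop of Nts. Gcg, on chr2:62474530-62483650, encodes proglucagon, the precursor of glucagon-like peptides, and had 1079 counts (AL), 1181 (DR) and 1476 (DR-AL). Its level was 40.6, 35.3 and 58.9 CPM, highest in DR-AL. The difference in DR was -0.20 (-0.32 to -0.08) on the log2 scale, under the fold threshold, and 0.54 (0.42 to 0.65) in DR-AL against AL. Insl5, on chr4:103017872-103026842, encodes a hormone of colonic L cells and had 954, 1245 and 1211 counts. At 35.9, 37.3 and 48.4 CPM it resembled Gcg in being highest after refeeding, with log2 fold changes of 0.05 for DR (-0.07 to 0.18) and 0.43 for DR-AL (0.31 to 0.55). Pyy, on chr11:102106676-102107832, encodes a peptide that reduces appetite and slows transit, and had 1954, 2594 and 1898 counts. Its level was 73.6, 77.6 and 75.8 CPM, and the intervals of both log2 fold changes against AL, -0.01 to 0.16 and -0.05 to 0.13, lie within the fold threshold. Gcg and Insl5 were also higher in DR-AL than in DR, by 0.74 (0.63 to 0.85) and 0.38 (0.26 to 0.49), while Pyy differed by -0.03 (-0.12 to 0.05).

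The serotonin and substance P genes of enterochromaffin cells went separate ways. Tph1, on chr7:46644641-46672537, encodes the rate-limiting enzyme of serotonin synthesis in the gut and had 919 counts (AL), 931 (DR) and 1110 (DR-AL). At 34.6, 27.9 and 44.3 CPM it was lowest in DR and highest in DR-AL. Its difference in DR was -0.31 (-0.45 to -0.18) on the log2 scale, just under the fold threshold, and 0.36 (0.23 to 0.48) in DR-AL against AL. The deposited FPKM of Tph1 was 12.1 (AL), 8.31 (DR) and 11.8 (DR-AL), by which Tph1 was called lower in DR (-0.53 with a pseudocount of 0.1) and the DR-AL difference turned to -0.03. Tac1, on chr6:7554879-7565834 of the plus strand, encodes the precursor of substance P and neurokinin A and had 105, 219 and 105 counts. Its level of 3.95, 6.55 and 4.19 CPM was highest in DR, with log2 fold changes of 0.73 (0.39 to 1.08) in DR against AL and -0.64 (-0.99 to -0.30) in DR-AL against DR. AL and DR-AL differed by 0.08 (-0.32 to 0.49).

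Chga, on chr12:102554969-102565028 of the plus strand, encodes chromogranin A, a protein of the secretory granules of endocrine cells. It had 3658 counts (AL), 3290 (DR) and 3170 (DR-AL), or 138, 98.4 and 127 CPM. The DR colon was lowest, at a log2 fold change of -0.48 (-0.55 to -0.42) against AL, and DR-AL was higher than DR by 0.36 (0.29 to 0.43). Nts and Sct were lower relative to Chga as well. Per 100 Chga counts there were 13.8 (AL), 4.01 (DR) and 4.92 (DR-AL) Nts counts, and 11.3, 5.78 and 6.18 Sct counts. Over the same libraries Gcg gave 29.5, 35.9 and 46.6 counts per 100 Chga counts and Insl5 26.1, 37.8 and 38.2, both lowest in AL.

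Of the 10 genes, Cck had the fewest counts in each colon library. Sst, on chr16:23889573-23890958, encodes somatostatin, which inhibits other endocrine cells, and had 105, 100 and 109 counts. Against AL, DR differed by -0.40 (-0.81 to 0.01) and DR-AL by 0.14 (-0.26 to 0.54) on the log2 scale, neither called, and DR-AL was higher than DR by 0.54 (0.14 to 0.95), which was called. Cck, on chr9:121489824-121495694, encodes cholecystokinin, a hormone of the upper small intestine, and had 22, 30 and 18 counts. With log2 intervals against AL of -0.73 to 0.98 for DR, and of -1.19 to 0.76 for DR-AL, differences of Cck inside them were not detectable at this depth. Transcripts of forebrain neurons were found in the same libraries, Slc17a7 with 25, 3 and 1 counts and Camk2a with 79, 53 and 27, both highest in AL. Of the 8 telencephalic excitatory neuron genes 3 were lower in DR, 2 were lower in DR-AL and none was higher against AL. Their summed level went the other way, at 195 CPM (AL), 237 (DR) and 235 (DR-AL). The part of forebrain RNA in the few Cck counts was not tested.

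**Figure D2:**
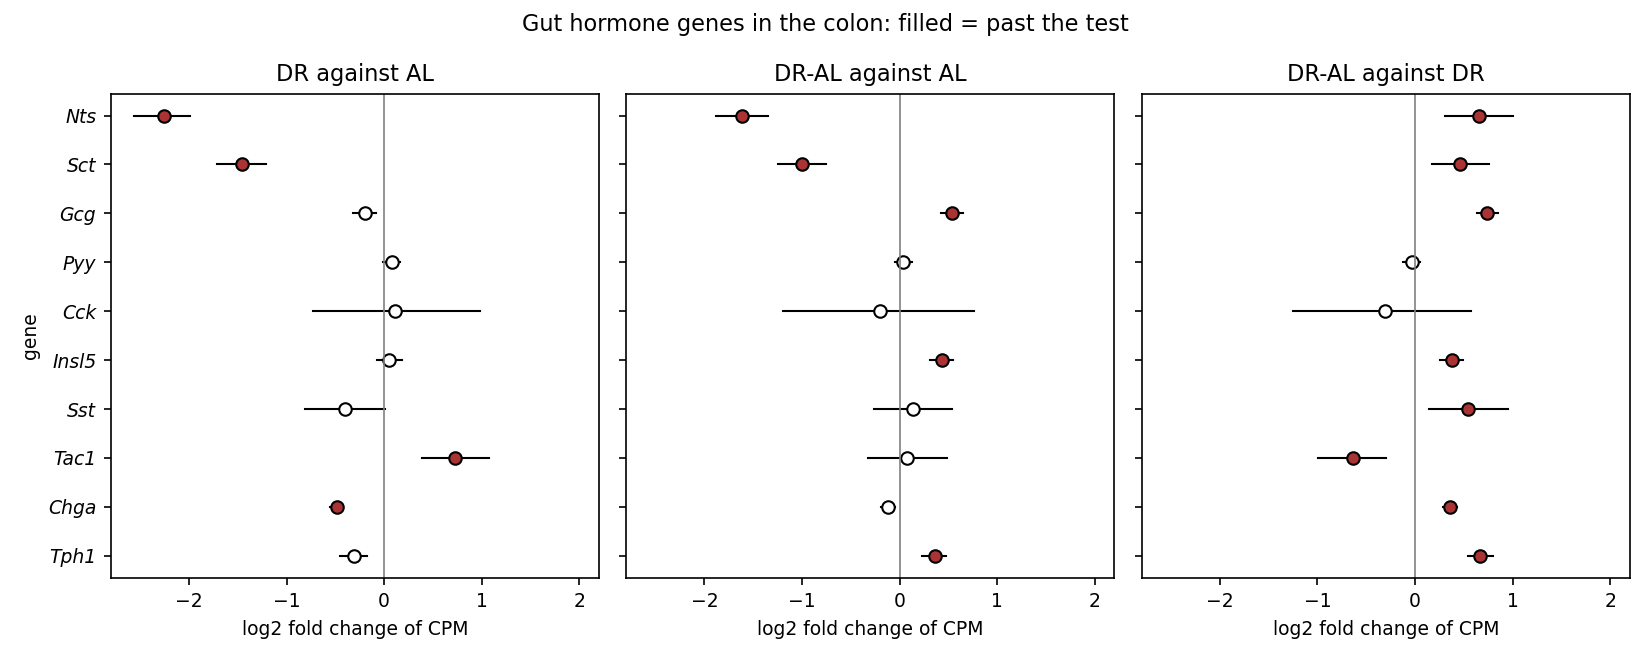
Log2 fold change of CPM for the 10 genes between the colon libraries named above each panel, with lines for the 95% exact interval of the ratio of counts and filled points for genes past the test. Nts at -2.26 and Sct at -1.46 lie farthest from 0 in DR against AL, and 7 genes lie to the right of 0 and are filled in DR-AL against DR.

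Markers of other cells and regions moved between the same colon libraries. Of 11 small intestine genes, 6 were lower in DR than in AL, with a median log2 fold change of -0.87 over the 11 (0.00 over all genes), and 5 were lower and 2 higher in DR-AL, with a median of -0.34. The sucrase-isomaltase gene Sis had 271 counts (AL), 76 (DR) and 121 (DR-AL), and the ileal bile acid transporter gene Slc10a2 had 3515, 1953 and 1458. Alpi, the intestinal alkaline phosphatase, had 2301, 1073 and 915 counts, and lactase (Lct) had 0, 1 and 0. The summed level of the list was 1182 CPM (AL), 592 (DR) and 707 (DR-AL), the order in which Nts and Sct also stood. Its part in the levels of Nts and Sct was not tested. Of 5 distal hindgut homeobox loci, Hoxb13 was higher in both DR (0.54) and DR-AL (0.58) and Hoxa13 in DR (0.38), and Hoxd10, which shares a locus with Hoxd11, and Hoxd12 were lower in DR-AL.

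All 4 tuft cell genes tested were lower in DR, Trpm5 with 411 counts (AL), 231 (DR) and 334 (DR-AL), and the summed level of the list was 37.5, 18.2 and 31.6 CPM. Of 5 leukocyte genes 4 were lower in DR, where the summed level was 6.52 CPM against 16.3 in AL and 21.2 in DR-AL. Smooth muscle genes went the other way in DR, with 3 of 7 higher, and 6 of 7 were lower in DR-AL than in AL. Their summed level was 61.3, 80.6 and 29.5 CPM, and Acta2 had 331, 689 and 136 counts. Of 6 stem cell and crypt genes, 5 were higher in DR, with a median log2 fold change of 0.54 and the proliferation gene Mki67 at 1206, 4394 and 1031 counts. All 13 hypothalamic neuron genes had counts in the DR colon, up to 7 for Avp, and Slc17a6 had 17 there and 0 in AL and DR-AL. Tac1 was highest in that library, which also had the highest smooth muscle and crypt lists, whereas the enteric neuron list, with a summed level of 10.1, 8.98 and 7.11 CPM, was highest in AL, and the part of these lists in the levels of the hormone genes was not tested.

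Gcg and Sst are also expressed in pancreatic islets, and pancreas genes differed between the colon libraries. Cela2a had 2 counts (AL), 2 (DR) and 55 (DR-AL), Pnlip 0, 0 and 41, Prss2 0, 0 and 32, and Cpa1 2, 0 and 30, all of them enzymes of acinar cells. The insulin genes Ins1 and Ins2 and the trypsin gene Prss1 were at 0 in all 3 colon libraries, where a count of 0 allows up to 3 counts, or 0.120 CPM in DR-AL. Cela1, an elastase that the colon libraries hold at 5814, 8487 and 5865 counts, was not called. Iapp, the islet amyloid gene, had 9, 9 and 3 counts. The part of pancreatic tissue in the levels of Gcg and Sst was not tested.

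**Figure D3:**
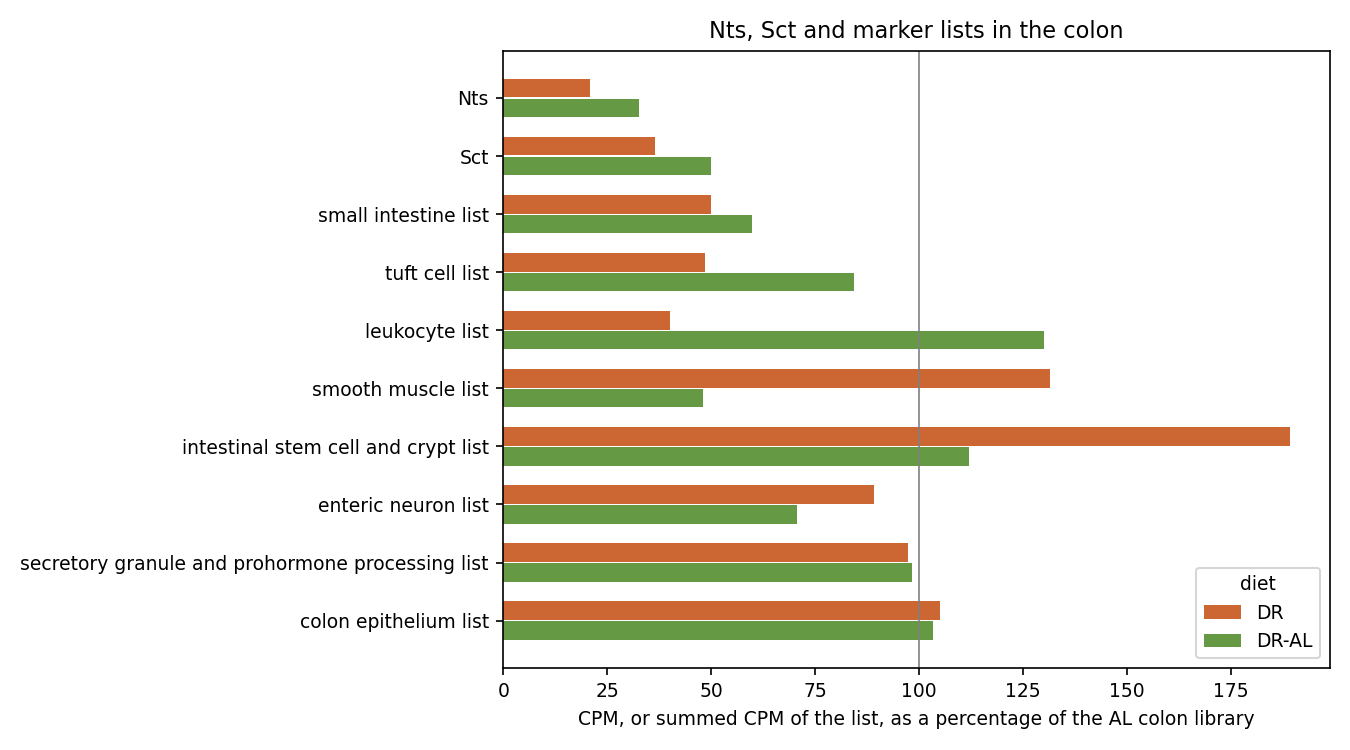
Level of Nts, Sct and marker gene lists in the DR and DR-AL colon as a percentage of the AL colon, in CPM for single genes and summed CPM for lists, with 1 bar per library. Nts stood at 20.8% in DR and 32.8% in DR-AL, the small intestine list at 50.1% and 59.8%, and the colon epithelium list at 105% and 103%.

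The genes that pack and cut the hormones kept a summed level of 425 CPM (AL), 414 (DR) and 418 (DR-AL). Of 14 granule and prohormone processing genes, 1 was higher and 3 lower in DR against AL, with a median log2 fold change of -0.05. Over all genes 9.04% were called higher and 10.6% lower. Pcsk1, the convertase that releases glucagon-like peptides from proglucagon, had 306, 289 and 262 counts (-0.41 in DR against AL), Pcsk1n -0.52 and Resp18 -0.42, while the granin Scg2 was higher with 118, 211 and 127 counts (0.50). In DR-AL 1 of the 14 was called, Pcsk1n at -0.47 against AL. The granin Chgb had 5498, 5657 and 4676 counts, with -0.29 in DR and -0.15 in DR-AL, neither called.

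Transcription factors of the enteroendocrine lineage had few counts apart from Foxa1 and Foxa2. Of 15, Neurog3, which commits progenitors to the endocrine fate, was higher in DR with 27, 59 and 26 counts (0.79), Foxa2 was higher in DR and DR-AL with 592, 1267 and 764 counts (0.77 and 0.45), and St18 was lower in DR with 53, 41 and 29 counts (-0.69). Fev, a factor of serotonin cells, was lower in DR-AL with 43, 55 and 17 counts (-1.23). The others, among them Neurod1 with 107, 111 and 84 counts, Insm1 with 78, 81 and 76 and Pax6 with 25, 31 and 20, were not called against AL. The median over the 15 was -0.18 in DR and -0.23 in DR-AL. In all, 2 were higher and 1 lower in DR, where 19.7% of all genes were called. In DR-AL 1 was higher and 1 lower, against 14.3% of all genes.

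Of 6 genes of serotonin synthesis, storage and uptake other than Tph1, Ddc, the decarboxylase that follows Tph1 in the pathway, was higher in both DR and DR-AL than in AL (0.44 and 0.73), with 1480, 2525 and 2311 counts. The vesicular transporter Slc18a1 was lower in DR with 213, 191 and 166 counts (-0.49). The serotonin transporter Slc6a4, at 754, 975 and 619 counts, differed by 0.04 in DR and -0.20 in DR-AL and was not called.

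Receptors of these hormones differed widely in level in the colon. The neurotensin receptor gene Ntsr1 had 0 counts (AL), 2 (DR) and 0 (DR-AL), and Ntsr2 had 1, 14 and 0, called higher in DR. That library also held the few counts of hypothalamic neuron genes given above, and the part of brain RNA in the Ntsr2 counts was not tested. Sort1, a sorting receptor that also binds neurotensin, had 13880, 17708 and 12874 counts and differed from AL by 0.02 and -0.02. The secretin receptor gene Sctr had 0, 2 and 0 counts. Glp1r, the receptor of glucagon-like peptide-1, was lower in DR and DR-AL with 28, 6 and 11 counts (-2.44 and -1.23). Npy1r, a receptor of peptide YY, was higher in DR with 141, 280 and 117 counts (0.66), as was the somatostatin receptor gene Sstr2 with 89, 162 and 95 counts (0.53), and Sstr1 was lower in DR-AL with 1567, 1701 and 825 counts (-0.84). In all, 3 of 23 receptors and hormone-cleaving enzymes tested were higher and 1 lower in DR, and 2 were lower in DR-AL. Over all genes 19.7% were called in DR and 14.3% in DR-AL.

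Sensors by which enteroendocrine cells read nutrients gave 2 of 13 lower in DR, where 10.6% of all genes were lower. These were the short-chain fatty acid receptor genes Ffar2 (240, 236 and 244 counts, -0.36) and Olfr78 (100, 85 and 86 counts, -0.56). In DR-AL against AL the fatty acid receptor gene Ffar4, with 793, 934 and 940 counts (0.33), and the bile acid receptor gene Gpbar1, with 1, 3 and 13, were higher and Cnr1, with 7, 7 and 0, was lower. Of 12 other gut hormone and enteric peptide genes tested, none was called in DR and Vip, with 22, 15 and 6 counts, was lower in DR-AL. Ghrl (3, 4 and 2 counts), Gip (1, 2 and 0) and Nmu (1, 1 and 2) were at or near the floor, and Adm led them with 357, 462 and 404 counts.

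In the hypothalamus Nts and Cck were higher in DR-AL than in AL, and Sst and Tac1 were lower. Cck, Sst and Tac1 already differed from AL in DR, in the same directions. Nts had 593 counts (AL), 709 (DR) and 1274 (DR-AL), or 19.98, 21.7 and 40.8 CPM. The intervals of AL and DR overlapped, at a log2 fold change of 0.12 (-0.04 to 0.28), and DR-AL stood above both, by 1.03 (0.89 to 1.17) against AL and 0.91 (0.78 to 1.05) against DR. Cck had 230, 677 and 646 counts, or 7.75, 20.7 and 20.7 CPM, so that AL was low and the intervals of DR and DR-AL overlapped. Against AL, DR was higher by 1.41 (1.20 to 1.64) and DR-AL by 1.42 (1.20 to 1.64), and the difference between DR-AL and DR was 0.00 (-0.16 to 0.16).

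Sst had 6396, 5108 and 3979 counts in the hypothalamus, or 216, 156 and 128 CPM. It was lower than AL in DR, by -0.47 (-0.52 to -0.41), and in DR-AL, by -0.76 (-0.81 to -0.70) on the log2 scale. Tac1 had 3678, 3196 and 2048 counts, or 124, 97.6 and 65.6 CPM, and was lower than AL in DR (-0.34, -0.41 to -0.28) and DR-AL (-0.92, -1.0 to -0.84). Both genes were thus lower than AL in the DR-AL library, where Nts was higher. Between DR-AL and DR, Tac1 was called lower, while Sst, at -0.29 (-0.35 to -0.23), stayed under the fold threshold. Chga had 10427, 12999 and 9737 counts, with 0.18 for DR (0.14 to 0.21) and -0.17 for DR-AL (-0.21 to -0.13) against AL, both under the fold threshold, and -0.35 (-0.39 to -0.31) in DR-AL against DR, which was called.

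Of the 10 genes, 3 were called between DR and AL in the hypothalamus, 1 higher and 2 lower, against 7.05% of 19320 genes tested, 4.33% higher and 2.72% lower. Between DR-AL and AL 4 were called, 2 in each direction, against 15.1%, 6.06% higher and 9.02% lower, and between DR-AL and DR 3 were called, Nts higher and Tac1 and Chga lower, against 9.62%, 2.82% higher and 6.80% lower. Counts of called genes in the other hypothalamus lists below are to be read against the same shares. All 10 were tested, but Sct, Gcg, Pyy and Tph1 had 7 or fewer counts in each hypothalamus library and 6 had a mean of at least 10 counts. The median log2 fold change of the 10 genes was 0.01, -0.11 and -0.06 and that of all genes 0.01, -0.03 and -0.03. With a coefficient of variation of 0.1 allowed, Cck stayed called in DR, all 4 genes in DR-AL against AL, and Nts in DR-AL against DR. With the 0.123 fitted over the hypothalamus libraries, Sst in DR-AL against AL also lost its call.

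**Figure D4:**
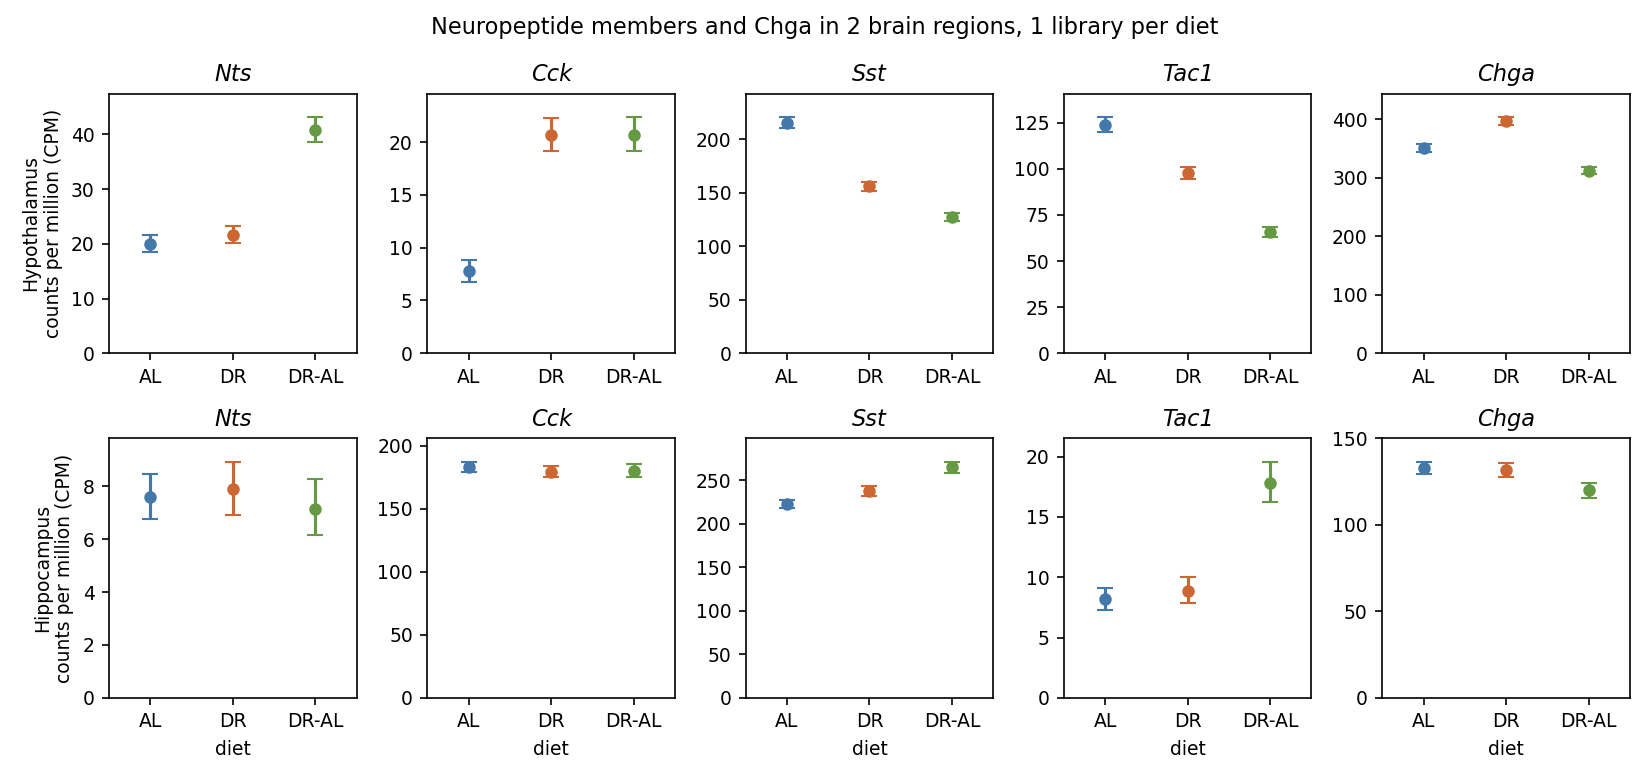
CPM of Nts, Cck, Sst, Tac1 and Chga in the AL, DR and DR-AL libraries of the hypothalamus (upper row) and hippocampus (lower row), with points for the single library of each diet and bars for the 95% exact Poisson interval. In the hypothalamus Nts was 40.8 CPM in DR-AL against 19.98 in AL while Tac1 was 65.6 against 124, and in the hippocampus Tac1 was 17.9 against 8.17 while Cck lay between 179 and 183.

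Markers of neighbouring regions also differed between the hypothalamus libraries. Slc17a7 had 58 counts (AL), 1147 (DR) and 368 (DR-AL), and 5 of 8 telencephalic excitatory neuron genes were higher in DR and 1 lower, among them Tbr1 with 30, 121 and 261 counts. In DR-AL against AL 3 of the 8 were higher and 2 lower. The summed level of that list was 896, 927 and 707 CPM, lowest in DR-AL. Of 5 thalamic genes 4 were higher in DR-AL than in AL, with Prkcd at 342, 431 and 1480 counts and Gbx2 at 12, 24 and 186, and a summed level of 340, 331 and 420 CPM. Cck and Slc17a7 were both above AL in DR and DR-AL. Slc17a7 had fewer counts in DR-AL than in DR, however, while Cck was level. Nts was highest in the library with the most Prkcd and Gbx2. The part of these regions in the levels of Nts, Cck, Sst and Tac1 was not tested.

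Of 13 hypothalamic neuron genes, 5 were higher and 7 lower in DR-AL than in AL, and 4 were higher and 3 lower in DR. Hcrt, the orexin gene of the lateral hypothalamus, had 679, 1705 and 4346 counts and Crh 50, 77 and 258, both highest in DR-AL like Nts. Genes of the arcuate nucleus were lowest in DR-AL, with Agrp at 440, 525 and 165 counts, Npy at 2527, 2458 and 790 and Pomc at 2980, 1052 and 708, the direction of Sst and Tac1. The summed level of the list was 1292 CPM (AL), 1087 (DR) and 996 (DR-AL). Of 8 GABAergic neuron genes 5 were higher in DR-AL, Lhx6 most with 100, 207 and 545 counts, while Npy was lower.

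Receptors of these hormones differed between the hypothalamus libraries too. Of 23 receptors and hormone-cleaving enzymes tested, 6 were higher and 7 lower in DR-AL against AL, and 3 were higher and 1 lower in DR. Over all genes 15.1% were called in DR-AL and 7.05% in DR. The neurotensin receptor gene Ntsr1 was higher in DR-AL with 470, 600 and 703 counts (0.51), as was Sort1 (0.38), while Ntsr2, with 6600, 6392 and 6551 counts, differed by -0.08 and was not called. The cholecystokinin receptor genes split, with Cckar higher (232, 253 and 309 counts, 0.34) and Cckbr lower (485, 534 and 374 counts, -0.45). The somatostatin receptor genes Sstr1 (-0.53) and Sstr4 (-0.40) were lower in DR-AL together with Sst, and the tachykinin receptor gene Tacr3, which binds neurokinin B, was higher (396, 448 and 661 counts, 0.67) while Tacr1, the receptor of substance P, at 510, 572 and 628 counts, was not called. Glp1r was lower in DR and DR-AL with 807, 600 and 489 counts (-0.57 and -0.79), and the peptide YY receptor genes Npy1r (-0.56) and Npy2r (-0.64) were lower in DR-AL.

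Of Sct, Gcg, Pyy, Insl5 and Tph1, Insl5 alone had more than 10 counts in a hypothalamus library. It had 55 counts (AL), 89 (DR) and 78 (DR-AL), none of the differences called. The 16 colon epithelium genes stood at a median of 0.0821%, 0.0198% and 0.0158% of their AL colon level there. The same percentages of the AL colon level of Insl5 come to 0.875 (AL), 0.233 (DR) and 0.177 (DR-AL) counts. The part of colon RNA in the Insl5 counts was not tested. Gcg had at most 1 count and Pyy at most 1 in these libraries, and Sct between 2 and 6.

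In the hippocampus Tac1 was the one gene of the 10 that was called. It had 331 counts (AL), 277 (DR) and 449 (DR-AL), or 8.17, 8.87 and 17.9 CPM. AL and DR differed by 0.12 (-0.12 to 0.35), and DR-AL stood above AL by 1.13 (0.92 to 1.34) and above DR by 1.01 (0.79 to 1.23), the reverse of its direction in the hypothalamus. No member was called between DR and AL, where 4.03% of 18804 genes were, 1.36% higher and 2.67% lower. Against this 1 of 10 was called in DR-AL against AL, where 6.15% of genes were, 3.99% higher and 2.16% lower, and 1 in DR-AL against DR, where 4.88% were, 3.63% higher and 1.26% lower.

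Genes of the striatum, a region whose projection neurons express Tac1, differed between the same libraries. All 6 striatal projection neuron genes tested were higher in the DR-AL hippocampus than in AL, with Adora2a at 44, 34 and 226 counts and Drd2 at 102, 92 and 245. Their summed level was 183 CPM (AL), 175 (DR) and 336 (DR-AL). Penk, the enkephalin gene, had 1084, 820 and 2189 counts (1.70 in DR-AL against AL) and Tacr1 73, 62 and 118 (1.37). The part of striatal tissue in the level of Tac1 was not tested.

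The other neuropeptide genes were not called in the hippocampus. Cck had 7410, 5600 and 4526 counts, or 183, 179 and 180 CPM, with -0.03 for DR (-0.08 to 0.02) and -0.02 for DR-AL (-0.08 to 0.03) against AL, so that both intervals lie within the fold threshold. Nts had 307, 246 and 180 counts, or 7.58, 7.88 and 7.15 CPM, with 0.06 (-0.19 to 0.30) and -0.08 (-0.36 to 0.19). Sst had 9021, 7420 and 6667 counts, or 223, 238 and 265 CPM, and its log2 fold change of 0.25 (0.20 to 0.30) in DR-AL stayed under the fold threshold. Chga had 5381, 4112 and 3021 counts and differed by -0.15 (-0.21 to -0.08) in DR-AL. Tph1 had 16, 25 and 9 counts, and Sct, Gcg, Pyy and Insl5 had 5 or fewer in each library.

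The tissues differed in which of the 10 transcripts led. In the hypothalamus Sst took 57.3% (AL), 48.7% (DR) and 47.7% (DR-AL) of the summed FPKM, followed by Chga with 19.3%, 25.7% and 23.9% and Tac1 with 18.8%, 16.5% and 13.8%. Nts took 2.66%, 3.24% and 7.64% there. In the hippocampus Sst (53.1%, 55.6% and 59.5%) and Cck (39.1%, 36.5% and 32.3%) made up most of the sum. In the liver no member had more than 5 counts in a library, and Nts had 0 in all 3.

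**Figure D5:**
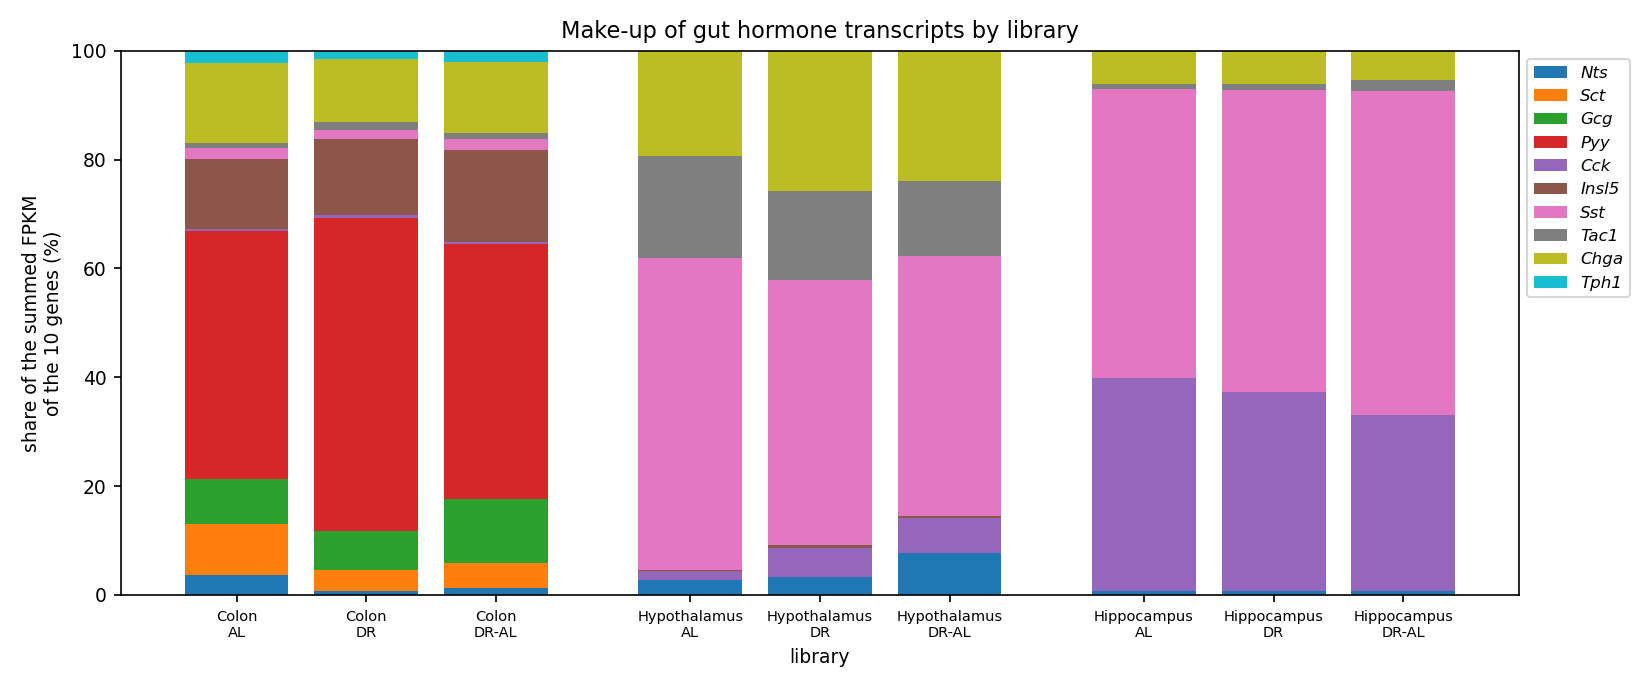
Share of each gene in the summed FPKM (level per transcript length) of the 10 genes in the 9 libraries of colon, hypothalamus and hippocampus, with 1 stacked bar per library. Pyy takes 45.5% to 57.5% of the colon bars, Sst 47.7% to 57.3% of the hypothalamus bars, and Sst and Cck together fill most of the hippocampus bars.

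Over the 15 libraries the 5 loci whose log2 CPM followed Nts most closely among 16658 compared were Kcnh6 (Pearson's r 0.973, Spearman's rho 0.936), Insm1 (0.973 and 0.935), Chga (0.971 and 0.975), Lmx1a (0.964 and 0.920) and Nipal3 (0.963 and 0.950). The libraries are groups of 3 from 5 tissues and the libraries of a tissue resemble each other, so that these values are a description with no test. In the colon, where Nts had 505, 132 and 156 counts, Kcnh6, a potassium channel subunit, had 106 counts (AL), 50 (DR) and 84 (DR-AL), Insm1 had 78, 81 and 76 and Nipal3 had 2633, 3102 and 2366.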

How the data were processed

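RNA pooled from 5 mice per tissue and diet gave 1 stranded, ribosomal RNA-depleted, paired-end library each, 15 in all. The authors discarded low-quality reads, aligned the rest and removed duplicate reads, which lowers the counts of very abundant genes most. The deposited table holds raw counts and FPKM values for 33603 loci in each library. How the authors scaled the FPKM values between libraries is not given in the sources used here. The submitters' processing notes name mm9 and DESeq2, the methods mm10, and 13.7% of 21577 matched symbols overlap their GENCODE M21 position on GRCm38, so coordinates printed here are those of GENCODE or RefSeq.

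From the counts on named loci, the study's Z test was recomputed (square roots of count over total, Poisson variance, Benjamini-Hochberg adjusted p under 0.05 over genes with at least 1 count in the tissue's 3 libraries, higher level at least 25% above the lower). Log2 fold changes use a pseudocount of 0.5 on counts scaled to the tissue's mean total. Intervals are 95% exact (Clopper-Pearson for ratios, Poisson for levels). With 1 library per group, groups come from the labels alone and p-values are not printed. A name with more than 1 locus was read at the locus with the most counts. Named genes are the 10 members, the genes of the marker and pathway lists, and the 5 loci most like Nts (up to 4 called genes of the largest fold change per list, and genes of a member's pathway); other list genes named were chosen after their values were seen. Hoxd10 and Hoxd11 share 1 locus, counted once. The members and lists were chosen with earlier results of these data known. Alternatives were DESeq size factors, TMM (edgeR 4.0.16, R 4.3.3), totals without the 10 most abundant genes, summed colon epithelium genes, a fold change of 2, a mean of at least 10 counts, equal depth, FPKM with pseudocounts of 0.1 and 1, and edgeR exact tests with the coefficient of variation set to 0.1 or with a dispersion fitted over each tissue's libraries. The Z test was tested on simulated data.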

Additional observations from a re-analysis of the deposited data

Results flagged for a closer look

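Nts differed in direction between tissues after refeeding, with a log2 fold change in DR-AL against AL of -1.61 in the colon and 1.03 in the hypothalamus. Tac1 differed in DR against AL, at 0.73 in the colon and -0.34 in the hypothalamus, and in DR-AL against AL, with hippocampus at 1.13 and hypothalamus at -0.92. In DR-AL against DR the hippocampus gave 1.01, the colon -0.64 and the hypothalamus -0.57. Chga differed in DR-AL against DR, at 0.36 in the colon and -0.35 in the hypothalamus. With 1 library per tissue and diet, none of these differences between tissues was itself tested.

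Epididymal fat, which the comparisons above do not use, held a few counts of gut hormone genes that passed the Z test against AL. Tac1 had 1 count (AL), 6 (DR) and 47 (DR-AL) and was called in both DR and DR-AL. Its log2 interval in DR, -0.26 to 8.31, spans 0. Chga had 8, 10 and 47 counts and was called in DR-AL. Tph1 had 10, 25 and 15, called in DR, and Insl5 had 1, 2 and 9, called in DR-AL. In fat 35.2% of all genes tested were called higher in DR and 46.0% in DR-AL.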

How the results depend on the processing

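Fewer members were called with a higher fold threshold or with error allowed between libraries. With a fold change of 2, the members called in DR against AL, DR-AL against AL and DR-AL against DR numbered 2, 1 and 0 in the colon and 1, 2 and 0 in the hypothalamus. With the exact test at a coefficient of variation of 0.1 they numbered 2, 2 and 1 in the colon and, in DR against AL and DR-AL against DR, 1 and 1 in the hypothalamus. With a dispersion fitted over the libraries of each tissue, whose coefficient of variation (colon 0.164, hypothalamus 0.123, hippocampus 0.070) takes in any effect of diet, they numbered 2, 1 and 0 in the colon and, in the same comparisons, 1 and 1 in the hypothalamus. The other 77 of 93 alternative counts stayed within 1.5 times. Genes called over all tested between DR and AL in the colon numbered 3586 by the Z test, 1045 at a fold of 2, 777 at a coefficient of variation of 0.1 and 235 with the estimated dispersion. In the hypothalamus these were 1362, 466, 233 and 167, and in the hippocampus 758, 245, 8 and 38. Between DR-AL and AL they were 2615, 732, 339 and 60 (colon), 2914, 887, 667 and 437 (hypothalamus) and 1157, 302, 55 and 143 (hippocampus), and between DR-AL and DR 2636, 1118, 667 and 312, 1858, 594, 366 and 258, and 918, 276, 57 and 138. FPKM with a pseudocount of 1 gave 557, 1612 and 852 in the hypothalamus and, in the hippocampus, 499 for DR against AL and 469 for DR-AL against DR. Nts in the colon, in DR against AL (-2.39 to -2.15 over 11 alternatives) and DR-AL against AL (-1.66 to -1.39), and Sct in DR against AL (-1.53 to -1.32) were called under each of the 11, as were Cck in both comparisons with AL and Nts in DR-AL against AL in the hypothalamus and Tac1 in both DR-AL comparisons in the hippocampus under each of 10. Tph1 in the colon, DR-AL against AL, turned from 0.36 to -0.03 with FPKM at a pseudocount of 0.1 and -0.03 at 1, and its call was also lost with summed colon epithelium genes (0.31), which called Tph1 lower in DR (-0.38), as did FPKM at both pseudocounts (-0.53 at 0.1 and -0.49 at 1). The cause was not tested. Chga in DR-AL against DR in the hypothalamus lost its call under 7 of 10 alternatives. Of genes called between DR and AL in the colon 46.0% were higher with totals and 32.6% with summed epithelium genes, between DR-AL and AL 40.7% and 29.0%, against 54.4% with FPKM. With FPKM at 0.1 the share also went from 46.9% to 57.5% between DR-AL and DR in the colon, from 40.2% to 50.5% and from 29.3% to 41.8% in the DR-AL comparisons of the hypothalamus, and from 64.8% to 83.6% between DR-AL and AL in the hippocampus. In the hippocampus, DR against AL, the share was 33.8% with totals and 67.3% with FPKM at 0.1, which moved the median of all genes from -0.01 to 0.10, and from 0.00 to 0.11 between DR-AL and AL. No paired analysis was possible because each tissue and diet has 1 library. Depth limits Cck in the colon and the members with few counts in the brain.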
